A study of Mus musculus with 24 samples.

Results

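Mitochondrial ribosomal proteins are the nuclear-encoded proteins of the ribosome that translates the mRNAs of mitochondrial DNA. Their genes were chosen from the count table as protein-coding rows whose symbol is Mrpl or Mrps followed by a number and at most 1 of the letters a to c, and 78 of 56748 rows met this rule. The rule itself used no measured value, but the members were chosen with earlier results of these data known. Of these genes, 51 encode proteins of the large subunit (39S), which forms the peptide bond, and 26 encode proteins of the small subunit (28S), which decodes the mRNA. Mrps18a and Mrps30 are counted with the large subunit, where their proteins are found despite their names. The remaining gene, Mrps36, carries a ribosomal name, but its protein is known as a component of the 2-oxoglutarate dehydrogenase complex.

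The mitochondrial ribosome is assembled in the matrix from rRNAs transcribed from mitochondrial DNA and from proteins that are all made in the cytosol and imported. It contains descendants of bacterial ribosomal proteins and a further set found in mitochondria, and it makes the hydrophobic core subunits of the respiratory chain and of ATP synthase. Endothelial cells draw much of their ATP from glycolysis, and their mitochondria are known also for biosynthesis and signalling.

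Primary endothelial cells from livers of adult C57BL/6 mice (3-month-old females according to the methods) were sorted with magnetic beads against Cd31, a general endothelial surface protein, or Cd146, used for liver sinusoidal endothelium. Each population was grown in culture and transduced with a lentivirus, and polyadenylated RNA was sequenced 1 week later. The pLKO.1 vector carried P16 shRNA, which silences P16Ink4a, or a non-coding shRNA (nc shRNA), and the pLenti-C-mGFP-P2A-Puro vector carried P16 cDNA or no insert (empty vector). The 8 groups were thus Cd31+ nc shRNA, Cd31+ P16 shRNA, Cd31+ empty vector, Cd31+ P16 and the same constructs in Cd146+ cells, with 3 libraries each and 24 in all. Both controls share with their treated groups the culture, the transduction and the viral backbone. P16Ink4a is a product of Cdkn2a that inhibits the cyclin-dependent kinases Cdk4 and Cdk6, and the labels do not say whether libraries of a group come from separate animals.

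Libraries held 15409767 to 26470392 counted reads, of which 0.183% to 0.354% fell on the 78 genes. Levels are given as CPM (reads of a gene scaled to a common library total) after TMM scaling, and per kilobase of the gene length in the table where genes are compared with each other. Cdkn2a, the check of the constructs, was at 11.8% of the nc shRNA mean in Cd31+ cells and at 10.7% in Cd146+ cells. It was 4.05-fold and 5.42-fold higher with P16 than with the empty vector. In each comparison of a construct with its control, all 3 treated libraries lay beyond all 3 controls. Its adjusted p (edgeR quasi-likelihood test) was 0.0218 in Cd31+ and 0.361 in Cd146+ cells on silencing. With P16 the adjusted p was 0.947 and 0.986, at means of 230 CPM (SD 96.7) and 498 CPM (SD 308). The cultures carried endothelial and mesenchymal transcripts together: summed over 12 endothelial markers the groups spanned 310.3 to 2343 CPM, and over 10 mesenchymal markers 6604 to 51039 CPM. Of 8 liver sinusoidal endothelial markers, Clec4g, Dnase1l3 and Stab2 stayed under 1 CPM in all 24 libraries, while Stab1 ran from 3.63 to 431 CPM and the highest values of the others were 7.53 CPM for Lyve1, 6.79 for Fcgr2b, 2.72 for Oit3 and 1.82 for Gpr182. Their sum spanned 6.49 to 449 CPM. Sums over 9 macrophage markers spanned 19.5 to 308 CPM, and over 5 cholangiocyte markers 38.4 to 982 CPM, where Spp1 alone reached 965 CPM. All 6 hepatocyte markers stayed under 1 CPM. The 3 Cd146+ libraries numbered 3 stood apart, with Pecam1 (the gene of Cd31) at 4.05 to 10.1 CPM against 61.5 to 281 CPM in the other 21 libraries, and Mcam (the gene of Cd146) at 3.22 to 11.6 CPM against 32.1 to 391 CPM. Male-specific Ddx3y without Xist was found in 16 libraries and Xist without Ddx3y in 8, against the females of the methods. In Cd146+ cells 2 of the 3 P16 shRNA libraries and 1 of the 3 nc shRNA libraries carried Xist, and none of the 6 Cd31+ libraries with a short hairpin did. Because these are bulk cultures, a change in the number of cells of one type and a change in RNA per cell cannot be told apart.

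Promoter sequences are shown first, because members of this family are known to share binding sites for the factors NRF1, GABPA and YY1 near their start sites. RefSeq (build GRCm38.p6) gave windows of 300 bases, from 250 bases before the start of a gene to 50 bases after it, for 69 of the 78 genes. The letters GCGCATGCG for NRF1, CCGGAAG for GABPA and AAGATGGCG for YY1 were searched on both strands, and none of these motifs contains another. At least 1 of them stood in the windows of 36 of the 69 genes (52.2%), beside 25.8% of 9877 tested protein-coding genes and 12.7% of all 27025 genes with a window. The GABPA letters were found for 26 members (37.7%, against 20.0% of tested protein-coding genes), the YY1 letters for 8 (11.6% against 3.59%) and the NRF1 letters for 7 (10.1% against 4.15%). A match describes letters in a window and not a bound site. Of the 14 members with a window that passed the p threshold on silencing in both populations, as described below for each population, 6 held a motif (42.9%), and of the 35 that passed it in neither, 19 did (54.3%).

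The windows of 5 members are printed as examples, 5′ to 3′ along the gene, with the motifs in capitals. Mrps33 had the smallest p of the family in Cd31+ cells, Mrpl17 and Mrpl42 were higher on silencing in both populations, Mrpl44 had the smallest p in Cd146+ cells, and Mrps18b was the member with the most negative fold change in Cd31+ cells.
Mrps33, chr6:39810887-39811186, minus strand: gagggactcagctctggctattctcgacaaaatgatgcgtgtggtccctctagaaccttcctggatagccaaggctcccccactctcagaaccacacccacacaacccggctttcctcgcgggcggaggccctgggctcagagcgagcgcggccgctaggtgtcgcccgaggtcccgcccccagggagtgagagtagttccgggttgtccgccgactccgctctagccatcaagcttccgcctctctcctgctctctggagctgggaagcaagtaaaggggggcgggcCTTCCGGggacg
Mrpl17, chr7:105811038-105811337, minus strand: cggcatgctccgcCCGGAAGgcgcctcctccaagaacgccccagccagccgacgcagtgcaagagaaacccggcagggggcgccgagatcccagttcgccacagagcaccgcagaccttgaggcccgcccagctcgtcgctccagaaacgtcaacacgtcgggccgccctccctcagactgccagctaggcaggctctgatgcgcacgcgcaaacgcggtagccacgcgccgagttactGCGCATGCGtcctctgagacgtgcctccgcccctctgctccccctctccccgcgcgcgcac
Mrpl42, chr10:95501900-95502199, minus strand: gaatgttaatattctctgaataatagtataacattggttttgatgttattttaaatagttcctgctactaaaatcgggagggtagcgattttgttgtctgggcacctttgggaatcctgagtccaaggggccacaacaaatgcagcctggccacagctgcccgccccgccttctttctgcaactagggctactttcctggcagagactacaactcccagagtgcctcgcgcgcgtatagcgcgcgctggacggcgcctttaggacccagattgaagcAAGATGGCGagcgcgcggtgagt
Mrpl44, chr1:79775768-79776067, plus strand: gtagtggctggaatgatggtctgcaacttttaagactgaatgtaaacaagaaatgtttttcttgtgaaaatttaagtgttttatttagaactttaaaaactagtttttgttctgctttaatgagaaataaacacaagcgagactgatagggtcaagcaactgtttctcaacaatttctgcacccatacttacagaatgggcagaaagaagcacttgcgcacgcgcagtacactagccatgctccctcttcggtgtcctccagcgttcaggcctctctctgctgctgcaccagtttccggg
Mrps18b, chr17:35916391-35916690, minus strand: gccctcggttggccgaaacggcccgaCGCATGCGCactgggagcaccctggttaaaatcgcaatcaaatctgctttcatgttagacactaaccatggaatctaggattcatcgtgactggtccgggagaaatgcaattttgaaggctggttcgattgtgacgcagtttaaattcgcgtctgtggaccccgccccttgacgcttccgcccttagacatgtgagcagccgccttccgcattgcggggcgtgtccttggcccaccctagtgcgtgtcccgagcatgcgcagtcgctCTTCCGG
The capitals mark GABPA letters on the reverse strand in Mrps33, GABPA and then NRF1 letters in Mrpl17, YY1 letters in Mrpl42, and NRF1 and then GABPA letters in Mrps18b, both on the reverse strand. None of the 3 motifs was found in the window of Mrpl44. The YY1 letters of Mrpl42 begin 27 bases after the first base of the gene, and the NRF1 letters of Mrpl17 begin 11 bases before it.

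All members but 1 were read in these cultures. Of the 78 genes, 77 passed the filter on low counts in every comparison, and their reads over all libraries ranged from 5914 for Mrpl46 to 37056 for Mrpl13. Mrpl53 was listed at 0 reads in all 24 libraries, and a count of 0 allows up to 0.113 to 0.195 CPM (3 reads, counting error only). In the table it lies wholly inside Gm42688, a protein-coding gene on the same strand with 308 reads, so reads from the pair cannot be told apart. The limit in CPM thus holds only for reads assigned to Mrpl53. In all, 41 members overlap another gene of the table, and the notes on the libraries name both a directional and a non-directional kit.

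Per kilobase of gene length, Mrpl52 ranked first with a mean of 64.5 CPM per kilobase over the 24 libraries, and its libraries ran from 34.9 to 127. Next came Mrpl54 with 55.1 and a range of 35.0 to 85.7, Mrps21 with 51.5 and a range of 19.4 to 103, Mrpl34 with 42.4 and a range of 24.6 to 81.3, and Mrpl12 with 39.2 and a range of 29.0 to 65.7. These ranges overlap, and differences between neighbours in this order were not tested. Mrpl12 builds the stalk of the large subunit that recruits translation factors, and Mrpl34 is a descendant of a small bacterial protein. At the other end stood Mrps35 with 2.12, Mrps30 with 2.61, Mrpl47 with 2.92, and, above the unread Mrpl53, Mrps25 with 3.18 and Mrpl48 with 3.19 CPM per kilobase. Within 1 gene the highest library exceeded the lowest by at most 5.33-fold, for Mrps21. Transcript ends that differ between the table's gene models and the cells would move such levels, and this was not tested.

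**Figure D1:**
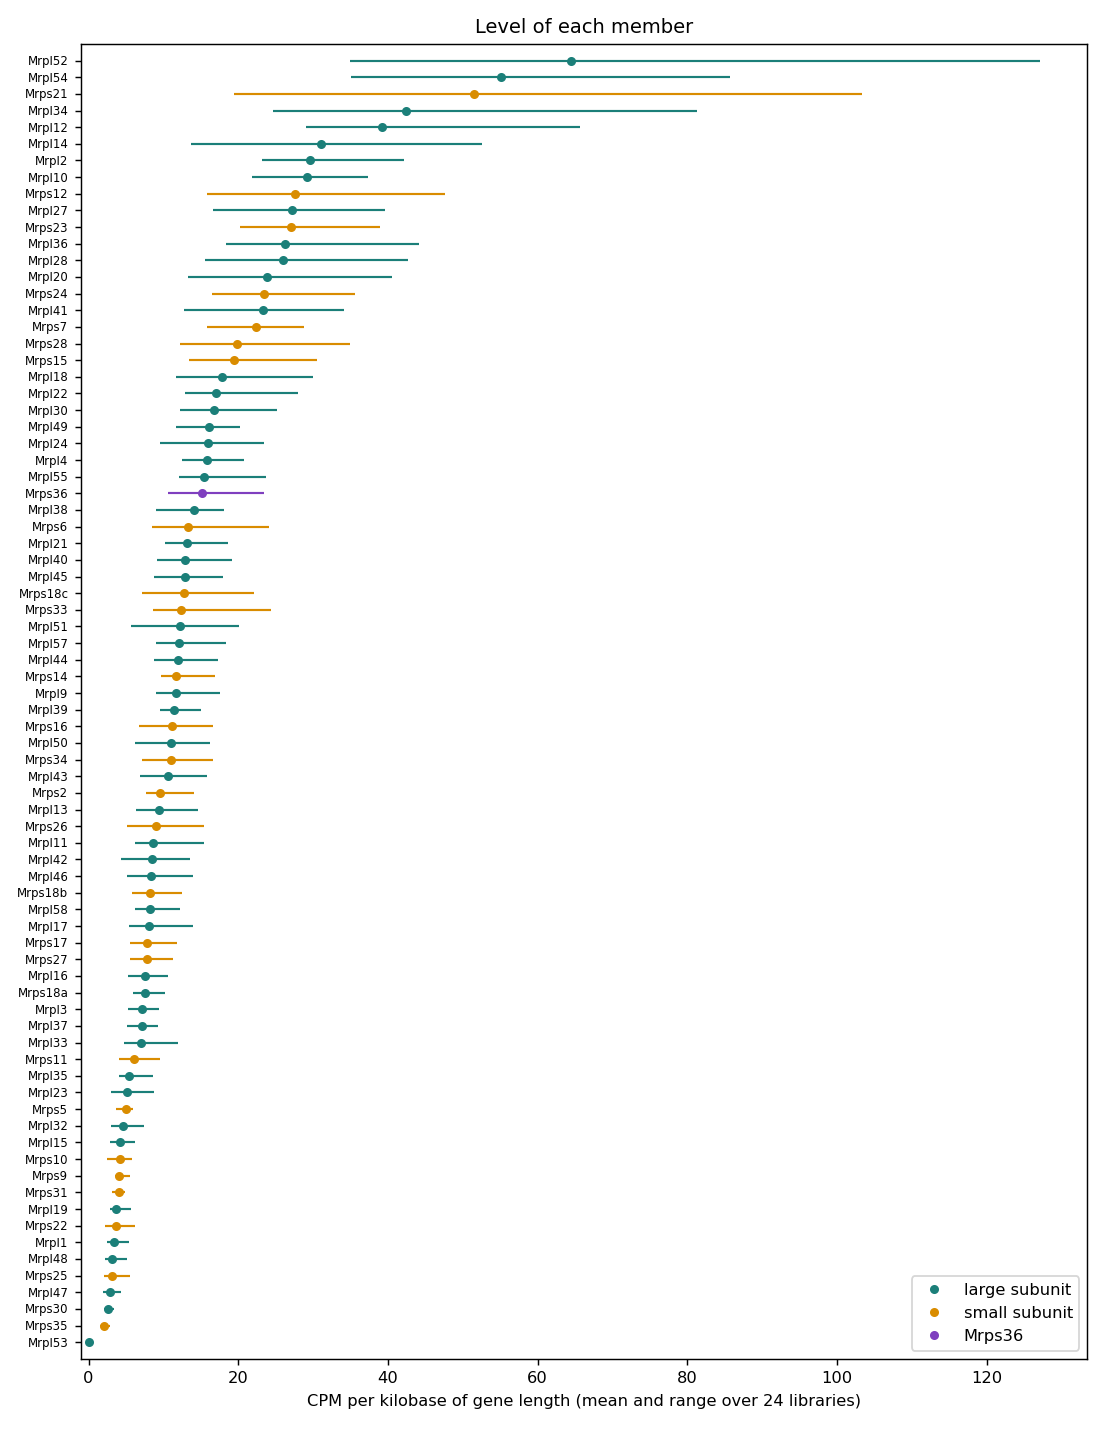
Level of each of the 78 genes in CPM per kilobase of gene length: points are means over 24 libraries and lines run from the lowest to the highest library. Mrpl52, Mrpl54 and Mrps21 lie above 50, Mrps35, Mrps30 and Mrpl47 below 3, and Mrpl53 at 0.

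The first comparison asked what silencing of P16Ink4a does to the family. In Cd31+ cells the summed level of the 77 expressed genes was 1912, 2151 and 2055 CPM with nc shRNA and 2485, 2367 and 2395 CPM with P16 shRNA. In Cd146+ cells it was 2024, 2417 and 2290 CPM with nc shRNA and 2940, 2491 and 3370 CPM with P16 shRNA. All 3 silenced libraries thus lay above all 3 controls in both populations. Library 6 of Cd146+ P16 shRNA was the highest of the 24 and library 1 of Cd31+ nc shRNA the lowest.

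**Figure D2:**
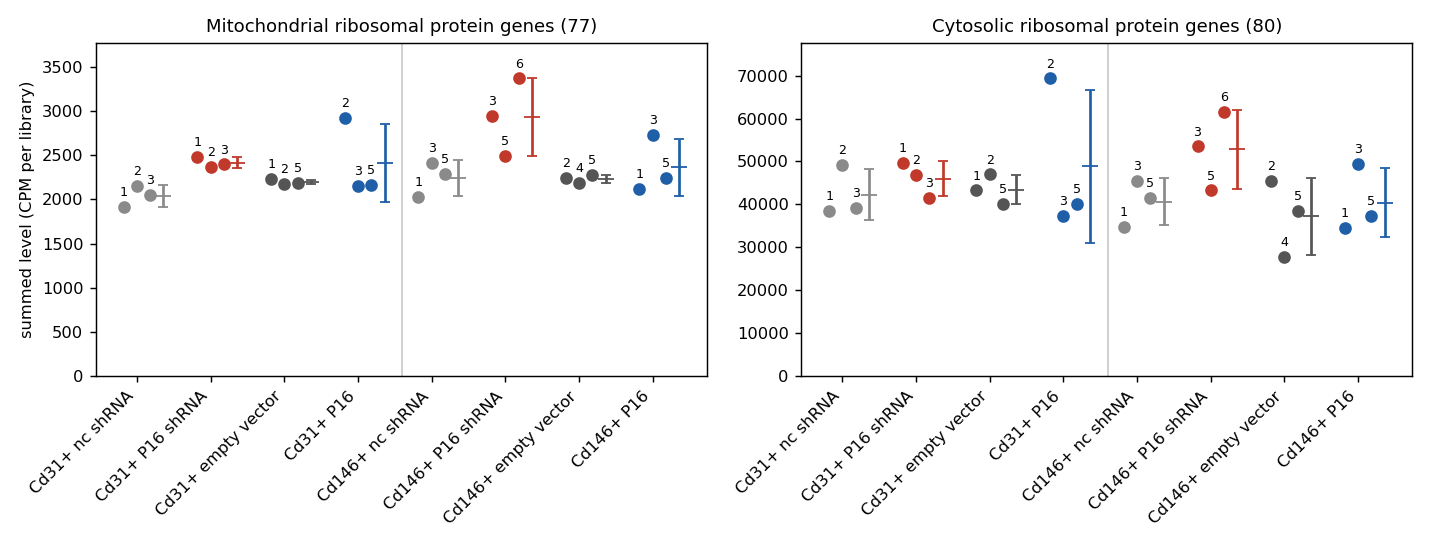
Summed CPM of the 77 expressed mitochondrial (left) and 80 cytosolic (right) ribosomal protein genes per library, labelled by replicate number; crosses with bars are the group mean and SD (n = 3). The mitochondrial sums of the P16 shRNA libraries exceed those of the nc shRNA libraries in both populations, whereas the cytosolic sums overlap in both.

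In Cd31+ cells 32 of 77 members were higher with P16 shRNA at an unadjusted p under 0.05 (edgeR quasi-likelihood test, two-sided), and none was lower. Over all 14358 genes tested, 9.51% were higher and 10.3% lower by the same rule. In 40 members all 3 silenced libraries lay above all 3 controls, as did 13.8% of all genes tested. The median log2 fold change of the members was 0.28, against 0.00 over all genes, and 64 members had a positive value. After Benjamini-Hochberg adjustment over all genes no member passed 0.05 (lowest adjusted p = 0.0740, for Mrps33), while 1.3% of all genes did. DESeq2's Wald test called 26 members higher, 9 of them at an adjusted p under 0.05. No share of all genes is given for that test, so its counts have no background here. Summed mesenchymal markers were 20193 to 37769 CPM with nc shRNA and 24094 to 51039 CPM with P16 shRNA, and summed endothelial markers 532 to 1042 CPM and 329 to 635 CPM. In all 3 same-numbered pairs the mesenchymal sum was higher and the endothelial sum lower with P16 shRNA. Their part in the result was not tested.

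Replicate numbers are shared between constructs, and libraries with the same number deviated together within a population, so the fit with the replicate number as a block stands beside this one. In the block of the 2 groups 40 members were higher and 1 was lower, beside 16.8% of all genes called higher, and 21 members passed an adjusted p of 0.05, as did 18.8% of all genes. With the 12 Cd31+ libraries in the block 32 were higher and 1 lower (beside 15.1% of all genes higher), and 15 passed the adjusted threshold (16.8% of all genes). The 2-group block kept all 32 calls, and the 12-library block 27 of them. In the 3 same-numbered pairs of silenced and control libraries, 50 members were higher in every pair, against 27.3% of all genes. Without library 1 of P16 shRNA the unblocked count was 15, beside 5.96% of all genes higher.

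Mrps33, a small-subunit protein without a bacterial counterpart, had the smallest p of the family in Cd31+ cells. Its level was 14.3, 15.0 and 14.4 CPM with nc shRNA and 23.9, 19.4 and 23.6 CPM with P16 shRNA (log2 fold change 0.62, SE 0.13, adjusted p = 0.0740). The silenced libraries did not overlap the controls, which lay within 1 CPM of each other.

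Mrpl11, a conserved protein at the base of the stalk of the large subunit, stood at 20.0, 22.2 and 20.6 CPM with nc shRNA and 33.0, 28.5 and 28.3 CPM with P16 shRNA (log2 fold change 0.52, SE 0.11, adjusted p = 0.0805). Mrpl10, which anchors the stalk, had 39.6, 39.5 and 41.3 CPM and 51.1, 52.3 and 50.4 CPM (log2 fold change 0.36, SE 0.09, adjusted p = 0.0931). Both genes separated the groups completely. Mrpl12, the repeated stalk protein itself, had 44.4, 53.2 and 51.8 CPM with nc shRNA and 73.1, 67.0 and 64.5 CPM with P16 shRNA (log2 fold change 0.46, SE 0.11, adjusted p = 0.0962). Mrpl9, another descendant of a bacterial large-subunit protein, had 24.3, 27.0 and 25.8 CPM and 35.3, 33.3 and 33.2 CPM (log2 fold change 0.41, SE 0.10, adjusted p = 0.0956). In Mrpl12 and Mrpl9, too, every silenced library lay above every control.

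Mrpl46, a large-subunit protein found in mitochondria, had the largest fold change of the members in Cd31+ cells, from 7.20, 9.58 and 9.15 CPM to 12.7, 13.9 and 14.3 CPM (log2 fold change 0.66, SE 0.16, adjusted p = 0.10). It overlaps the start of its head-to-head neighbour Mrps11 by 413 bases in the table. Mrps11 itself had a log2 fold change of -0.01 in the same cells (SE 0.20, adjusted p = 0.987), so the 2 neighbours gave different values.

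In Cd146+ cells 21 of 77 members were higher with P16 shRNA at an unadjusted p under 0.05 and none was lower, beside 5.44% of 15124 genes higher and 6.18% lower. In 33 members all 3 silenced libraries lay above all 3 controls, as in 10.5% of all genes, and 75 members had a positive fold change. The median log2 fold change was 0.39 against 0.03 over all genes. The lowest adjusted p was 0.382 and 0% of all genes passed the adjusted threshold with edgeR. DESeq2's Wald test called 20 members higher and 1 of them after adjustment, with no share of all genes given for it. Mesenchymal sums were 11028 to 27438 CPM with nc shRNA and 25544 to 31832 CPM with P16 shRNA, and endothelial sums 344 to 1784 CPM and 310 to 1844 CPM. In both same-numbered pairs of this population, too, the mesenchymal sum was higher and the endothelial sum lower with P16 shRNA. Their part in the result was not tested, nor was that of the uneven Xist libraries.

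The Cd146+ count moved with single libraries. It was 3 without library 1 of nc shRNA (beside 2.07% of all genes higher), 10 without library 3 (3.25%) and 12 without library 5 (7.55%) of that group, and 7 without library 6 of P16 shRNA (3.52%). Without both libraries numbered 3, whose endothelial markers were low, 7 members were higher and none lower (3.71% of all genes higher), and the median stayed at 0.42. The block of the 2 groups gave 12 higher members, beside 7.57% of all genes higher, and a median of 0.20. The 12-library block gave 25 higher and 2 lower, Mrps15 and Mrpl57, beside 13.5% of all genes higher, and 3 members passed an adjusted p of 0.05 (Mrpl30, Mrpl44 and Mrpl50, with 8.33% of all genes passing). In that block without the libraries numbered 3, 13 members were higher, beside 10.8% of all genes, and 2 were lower, with a median of 0.17. There 3 members passed the adjusted threshold, a count for which no share of all genes is given. Numbers 3 and 5 occur in both groups, and 54 members were higher in both of these pairs, against 34.4% of all genes.

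Mrpl44, a large-subunit protein with a ribonuclease III fold, had the smallest p in Cd146+ cells. Its level was 15.2, 15.7 and 17.3 CPM with nc shRNA and 24.5, 25.3 and 28.5 CPM with P16 shRNA (log2 fold change 0.70, SE 0.17, adjusted p = 0.382). The groups did not overlap, nor did they in Cd31+ cells, where the level was 14.3, 15.3 and 17.9 CPM against 22.7, 20.3 and 23 CPM (log2 fold change 0.48, SE 0.13, adjusted p = 0.120). Wdfy1, whose start lies 125 bases away on the other strand, had log2 fold changes of -0.25 in Cd31+ cells, where it passed the unadjusted threshold, and -0.41 in Cd146+ cells, where it did not.

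Mrps18c, one of 3 mitochondrial relatives of bacterial protein S18, had 13.2, 13.8 and 13.4 CPM with nc shRNA and 22.9, 17.6 and 23.7 CPM with P16 shRNA (log2 fold change 0.67, SE 0.19, adjusted p = 0.382). Mrps33 had 18.9, 20.1 and 20.9 CPM and 32.1, 26.2 and 40.6 CPM (log2 fold change 0.73, SE 0.21, adjusted p = 0.382). Mrpl47, a descendant of the bacterial protein L29 near the exit of the peptide tunnel, had 8.73, 11.6 and 12.9 CPM and 19.1, 15.9 and 17.8 CPM (log2 fold change 0.67, SE 0.22, adjusted p = 0.397). In each of these genes the lowest silenced library lay above the highest control.

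The calls overlapped between the populations, which share no library. Of the members called, 16 were higher in both, 50% of the 32 in Cd31+ cells and 76.2% of the 21 in Cd146+ cells, and 40 of 77 were called in neither. Of all 14123 genes tested in both, 3.36% were called higher in both. Positive fold changes in both populations were found for 63 members. Over the 77 members the log2 fold changes had a Pearson r of 0.655 between the populations, beside 0.704 over all genes. These points share their libraries within each population, and the correlation is a description.

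The 16 shared members comprised 12 of the large and 4 of the small subunit. The small-subunit ones were Mrps33, Mrps26, Mrps28 (related to bacterial S1) and Mrps17 (related to bacterial S17). Mrps26, a mitochondrial addition, had log2 fold changes of 0.59 in Cd31+ and 0.58 in Cd146+ cells, Mrps28 of 0.55 and 0.66, and Mrps17 of 0.35 and 0.47. Among conserved large-subunit proteins, Mrpl17 had 0.43 and 0.63, Mrpl18 had 0.34 and 0.73, Mrpl19 had 0.43 and 0.50, Mrpl30 had 0.34 and 0.51, Mrpl12 had 0.46 and 0.53, and Mrpl47 had 0.35 and 0.67. The additions found in mitochondria were Mrpl42 (0.47 and 0.60), Mrpl44 (0.48 and 0.70), Mrpl45 (0.31 and 0.54), Mrpl46 (0.66 and 0.61), Mrpl50 (0.40 and 0.67) and Mrpl52 (0.31 and 0.65). Mrpl45 sits near the tunnel exit, where the ribosome meets the inner membrane. In the edgeR fits of 2 groups without a block, all 16 had adjusted p-values above 0.05 in both populations. With the block of 12 libraries Mrpl44 passed in both (adjusted p = 0.0201 in Cd31+ and 0.0194 in Cd146+ cells). Mrpl50 did so too (0.0284 and 0.0257), where 16.8% and 8.33% of all genes passed.

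**Figure D3:**
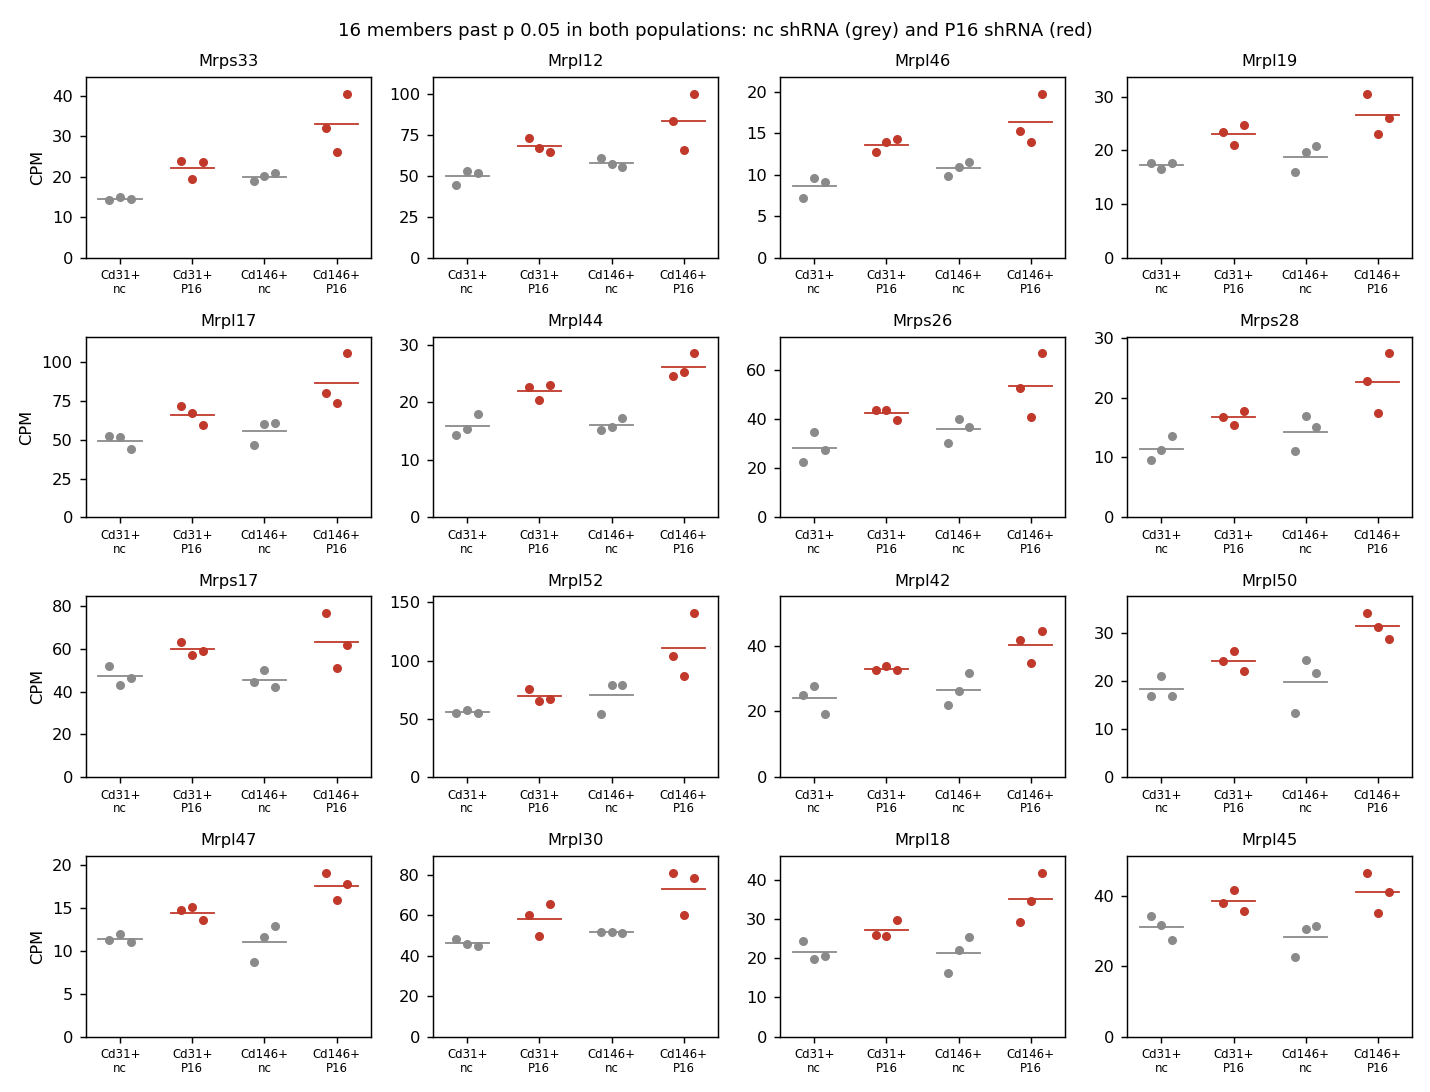
CPM of the 16 members past an unadjusted p of 0.05 in both populations, with 1 point per library (grey nc shRNA, red P16 shRNA) and the group mean as a line (n = 3). In every panel the red points lie above the grey ones of the same population, and library 6 of Cd146+ P16 shRNA is the highest point in 10 of the 16.

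**Figure D4:**
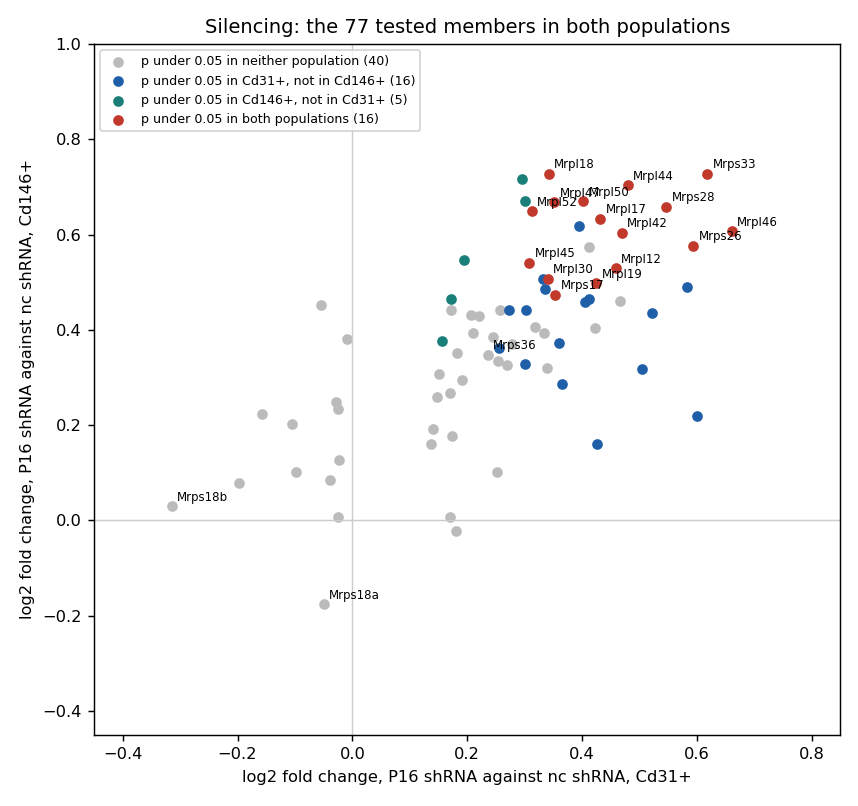
Log2 fold change of P16 shRNA against nc shRNA for the 77 tested members, with Cd31+ cells on the horizontal and Cd146+ cells on the vertical axis, coloured by the populations in which the unadjusted p was under 0.05. 63 members lie in the upper right, positive on both axes, and Mrps18a is the 1 member negative on both axes.

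The test of the difference between the populations called no member. For silencing, 0 of 77 members differed between Cd146+ and Cd31+ cells at an unadjusted p under 0.05 (edgeR interaction test over 12 libraries), beside 1.07% of all genes, by DESeq2 0 as well, and Mrpl13 had the smallest p. The median difference, Cd146+ minus Cd31+, was 0.13 on the log2 scale and -0.06 in the block of 24 libraries. A call in one population and not in the other, as for Mrpl11 or Mrps18c, is therefore not shown to be a difference between them.

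The members were also counted by structural class, for silencing. Over all genes, 9.51% were higher in Cd31+ and 5.44% in Cd146+ cells. Of 30 large-subunit proteins with bacterial relatives 17 were higher in Cd31+ and 8 in Cd146+ cells, with median log2 fold changes of 0.34 and 0.46. Of 20 tested large-subunit proteins found in mitochondria, 9 and 8 were higher, with medians of 0.29 and 0.37. Of 16 small-subunit proteins with bacterial relatives 2 and 3 were higher, with medians of 0.19 and 0.30, and of 10 further small-subunit proteins 4 and 2, with medians of 0.26 and 0.43. None of the 4 classes had a member called lower. Together 26 of 50 large-subunit and 6 of 26 small-subunit members were higher in Cd31+ cells, and 16 and 5 in Cd146+ cells. The difference between the subunits was not tested.

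The 3 relatives of bacterial S18 gave fold changes of both signs. Mrps18b, of the small subunit, had 26.2, 17.8 and 19.0 CPM with nc shRNA and 18.2, 15.5 and 16.6 CPM with P16 shRNA in Cd31+ cells (log2 fold change -0.31, SE 0.17, adjusted p = 0.361). In the blocks of 2 groups and of 12 libraries it was the 1 member below its control at an unadjusted p under 0.05, with a log2 fold change of -0.30 in the block of 2 groups (adjusted p = 0.127). In Cd146+ cells its value was 0.03, and it turned negative in both blocked fits there. Mrps18a, of the large subunit, had log2 fold changes of -0.05 (SE 0.14, adjusted p = 0.881) in Cd31+ and -0.18 (SE 0.21, adjusted p = 0.750) in Cd146+ cells, and the first turned to 0.06 without library 3 of nc shRNA. Mrps18c had 0.30 (SE 0.21, adjusted p = 0.475) in Cd31+ cells and passed the threshold in Cd146+ cells, as given above. Mrps36, which belongs to the dehydrogenase, had 0.24 (adjusted p = 0.361) and 0.35 (adjusted p = 0.551) and was called in neither.

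Forced expression of P16Ink4a was the second question. At an unadjusted p under 0.05 no member was called in either population by edgeR, beside 3.73% of 14565 genes in Cd31+ and 3.53% of 14860 genes in Cd146+ cells. DESeq2's Wald test called 1 in Cd31+ and none in Cd146+ cells. By edgeR, Cdkn2a itself had adjusted p = 0.947 in Cd31+ and 0.986 in Cd146+ cells. Its mean was 4.05-fold and 5.42-fold higher there, so a high adjusted p in these fits does not show an unchanged level. Median log2 fold changes of the members were 0.13 in Cd31+ and 0.09 in Cd146+ cells, against 0.01 and 0.00 over all genes. In Cd31+ cells the summed level was 2228, 2179 and 2181 CPM with the empty vector and 2926, 2150 and 2163 CPM with P16. Library 2 of P16 alone lay far above, with 74 of 77 members over their group mean, and without it the median was 0.00. In Cd146+ cells the sums were 2247, 2184 and 2273 CPM with the empty vector and 2119, 2728 and 2238 CPM with P16. There library 3, 1 of those with low endothelial markers, was the highest, with 71 members over their group mean, and without it the median was -0.04.

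Mrps21, a descendant of bacterial S21, came nearest to the threshold on overexpression in Cd31+ cells, with 25.8, 28.4 and 34.4 CPM in the empty vector and 61.3, 28.7 and 48.7 CPM with P16 (log2 fold change 0.65, SE 0.28, adjusted p = 0.947). Under the block of 2 groups it passed an adjusted p of 0.05 (log2 fold change 0.81, adjusted p = 0.0460), 1 of 6 members called there, all higher, beside 3.73% of all genes higher. The block of 12 libraries called 10, all higher, beside 5.98%. The block of 2 groups rests on the numbers 2 and 5, which both groups share. Without library 3 of P16 the unblocked fit called 8, all higher (1.92% of all genes), and without library 2 of P16 it called 1, which was lower. In Cd146+ cells Mrpl43 had the smallest p (log2 fold change 0.51, SE 0.23, adjusted p = 0.986). The difference between the populations was called for no member by edgeR (3.24% of all genes) and for 1 by DESeq2, and the median difference was -0.06.

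**Figure D5:**
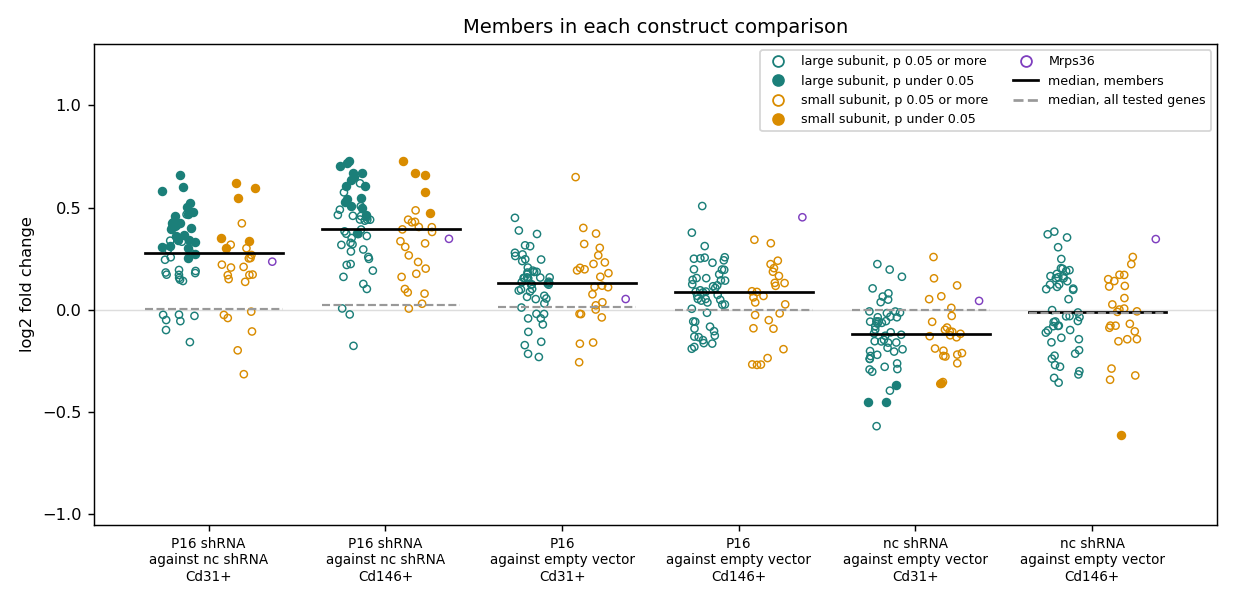
Log2 fold changes of the tested members in 6 construct comparisons, with large-subunit genes in green, small-subunit genes in orange and Mrps36 in purple; filled points have an unadjusted p under 0.05, and solid and dashed lines are the medians of the members and of all tested genes. The members lie above the line of all genes in both silencing comparisons (medians 0.28 and 0.39) and nearer to it in the others.

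Silencing was measured against nc shRNA and overexpression against the empty vector, so the controls themselves were compared. In Cd31+ cells 4 members were lower with nc shRNA than with the empty vector and none was higher, beside 3.16% of all genes called, and the median was -0.12. These were Mrpl50 (log2 fold change -0.45), Mrps6 (-0.36), Mrpl37 (-0.37) and Mrpl24 (-0.45), each with adjusted p = 0.992, and leaving out 1 library at a time gave 0 to 6 calls: 0 without library 5 of the empty vector, 1 without library 1 of nc shRNA, and 2 without library 1 or library 2 of the empty vector. The empty-vector libraries thus lay between those of nc shRNA and of P16 shRNA in summed level. In Cd146+ cells 1 member, Mrps6, was lower (-0.61, adjusted p = 0.907), beside 3.99% of all genes, and the median was -0.01. It was not called without library 1 or 3 of nc shRNA or library 4 of the empty vector. Mrps6 shares its span with Slc5a3 on the same strand.

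The populations were also compared under each control. With nc shRNA 7 were higher and 1 lower in Cd146+ than in Cd31+ cells, beside 8.16% of all genes in either direction. Mrpl11 had 20.0, 22.2 and 20.6 CPM in Cd31+ and 31.7, 28.7 and 27.1 CPM in Cd146+ cells (log2 fold change 0.48, SE 0.14, adjusted p = 0.591), and Mrps33 and Mrps7 were higher by 0.46 and 0.44 (both with adjusted p = 0.591). Mrpl13 was lower, with 67.2, 116 and 90.5 CPM against 52.5, 66.9 and 61.2 CPM (log2 fold change -0.59, SE 0.22, adjusted p = 0.591). The negative values with the next smallest p were -0.31 for Mrps18b and -0.19 for Mrpl3, neither of which was called. With the empty vector 2 were higher and 1 lower, beside 6.12% of all genes: Mrps21 (0.49), Mrpl18 (0.37) and Mrps30 (-0.39), each with adjusted p = 0.727. Mrps6 at 0.51, Mrps35 at -0.23 and Mrpl15 at -0.31 were the members named next by p and were not called. The count was 1 without library 1 or library 2 of Cd31+ empty vector and 5 without library 2 of Cd146+ empty vector. No member was called in the same direction with both controls. The 8 calls with nc shRNA fell to 3 without library 1 or library 3 of Cd31+ nc shRNA and to 4 without library 3 of Cd146+ nc shRNA, and the block on the shared numbers left 1.

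The rest of the machinery for mitochondrial translation was tested in the same fits. Over all genes, 9.51% were higher and 10.3% lower in Cd31+ cells on silencing, and 5.44% and 6.18% in Cd146+ cells. Of the 5 proteins of the mitochondrial ribosome that carry other names, Chchd1 was higher in Cd31+ cells (log2 fold change 0.38, SE 0.10, adjusted p = 0.111), and the medians were 0.29 and 0.34. Of 26 assembly and rRNA modification factors, 4 were higher and 1 lower in Cd31+ cells and 2 higher in Cd146+ cells, with medians of 0.11 and 0.19. Mrm3, a methyltransferase for the large rRNA, was higher in both (0.65, adjusted p = 0.151, and 0.66, adjusted p = 0.427), and Fastkd2, an RNA-binding assembly factor, was lower in Cd31+ cells (-0.56, adjusted p = 0.172). Of 15 translation factors, 2 were higher and 1 lower in Cd31+ and 3 higher in Cd146+ cells, with medians of 0.14 and 0.11. Tufm, the elongation factor that brings aminoacyl-tRNA, had 0.43 (adjusted p = 0.141) and 0.56 (adjusted p = 0.422), and Slirp, a stabilizer of mitochondrial mRNA, had 1.40 in Cd146+ cells (adjusted p = 0.382). Of 20 mitochondrial aminoacyl-tRNA synthetases and related enzymes 3 were higher in Cd31+ cells, and none in Cd146+ cells. Of 7 genes of mitochondrial transcription none was called on silencing, and Tfam, which packages mitochondrial DNA, had 0.21 (adjusted p = 0.296) and 0.48 (adjusted p = 0.482).

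The mRNAs that these ribosomes translate gave no call on silencing. Of the 13 mRNAs encoded by mitochondrial DNA, 12 were tested, and none was called on silencing, with median log2 fold changes of -0.17 in Cd31+ and -0.13 in Cd146+ cells. They made up 11970 to 17526 CPM in the group means. Of 9 regulators of mitochondrial biogenesis 8 were tested. Myc in Cd146+ cells was the 1 called on silencing (0.70, adjusted p = 0.428), beside 5.44% of all genes higher there. The genes of the factors searched for above, Nrf1, Gabpa, Gabpb1 and Yy1, passed the threshold in neither population.

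Cytosolic ribosomal proteins give the contrast with the ribosome outside the mitochondria. On silencing in Cd31+ cells 1 of 80 was higher and 2 were lower, beside 9.51% and 10.3% of all genes. The median log2 fold change was 0.14. For Cd146+ cells 12 were higher and 1 lower, beside 5.44% and 6.18% of all genes, with a median of 0.43. The median of the mitochondrial members was thus larger in Cd31+ cells and similar in Cd146+ cells (0.28 and 0.39). In every same-numbered pair 19 of 80 cytosolic genes were higher in Cd31+ cells and 56 of 80 in Cd146+ cells, against 27.3% and 34.4% of all genes. The difference between the lists was not tested.

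Gene length moved with the fold changes. Over all genes tested, shorter genes had the higher fold changes on silencing (Spearman rho -0.176 in Cd31+ and -0.278 in Cd146+ cells, across genes, which are not independent), and the members are short, with a median gene length of 2533 bases against 4202 bases over all genes tested in Cd31+ cells. When each library's trend on gene length was taken out, 25 members were higher in Cd31+ cells (median 0.22, beside 9.44% of all genes higher) and 19 in Cd146+ cells (median 0.26, beside 5.61%), and none was lower. In the same setting with the block of 12 libraries 31 higher and 2 lower members were found in Cd31+ cells, where 16.5% of all genes were higher, and 25 and 2 in Cd146+ cells (14.4%). The lower ones were Mrps15 and Mrps18b in Cd31+ and Mrps15 and Mrpl57 in Cd146+ cells. Length and GC content of fragments were not tested further.

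Members of the family deviated together from library to library. No such value for other genes is given here. After the group means were taken out, pairs of members had a median r of 0.395 over the 24 libraries, and 87.2% of the 2926 pairs had a positive r. Mrps31 and Mrps2 were exceptions, with r of -0.169 and -0.0469 to the mean of the other members. A start site of another protein-coding gene on the opposite strand stood within 1000 bases for 32 of the 78 members (41.0%), against 16% of tested protein-coding genes. Of 28 such neighbours that were tested and are not members, 2 were higher and 1 lower in Cd31+ cells on silencing, and 1 higher and 1 lower in Cd146+ cells, with medians of 0.15 and 0.19. Over all genes 9.51% were higher and 10.3% lower in Cd31+ cells, and 5.44% and 6.18% in Cd146+ cells. The members were spread over 17 chromosomes.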

How the data were processed

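Poly(A) RNA of 24 libraries in 8 groups was sequenced and quantified by a provider for the study. The authors deposited a table of raw read counts per gene, which was analysed here, together with FPKM values and columns of their own comparisons (fold changes, p-values), which were not used. The submitters' processing notes name fastp and mm9, and the aligner and the use of strand in counting are not given in the sources used here. Coordinates in the table were not matched to another build, and promoter coordinates are those of RefSeq GRCm38.p6.

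Counts were filtered with filterByExpr, scaled by TMM and tested with edgeR 4.0.16 (quasi-likelihood, robust, R 4.3.3) within the groups compared, and p-values were adjusted by Benjamini-Hochberg across every gene in the fit. DESeq2 1.42.0 was an alternative, and the code was tested on simulated counts. Calls use an unadjusted p under 0.05. The labels do not tie libraries to animals, so p-values measure the spread between these samples, which may be technical. Libraries of 1 population with the same number deviated together (lowest r of 13 Cd31+ pairs 0.320, of 10 Cd146+ pairs 0.378), so the numbers were taken as pairs. Settings without the libraries numbered 3 and without the length trend were chosen after seeing the data.

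The members and lists were chosen with earlier results of these data known. Named with values were the 4 members with the smallest p in each direction and comparison among those called, and at most 8 with an adjusted call. Also named were those called in both populations, the 5 highest and lowest per kilobase, the Mrps18 paralogues and Mrps36, and 3 members per direction between populations. Of the other lists, some of the 2 genes with the smallest p in a comparison were named. Mrps21, Mrpl43, Mrps11, Mrps31, Mrps2 and the genes beside members were added after their values were seen.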

Additional observations from a re-analysis of the deposited data

How the results depend on the processing

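Of the values of named genes under the alternatives, 722 kept their direction and their side of the threshold, 153 lost the threshold, 6 gained it and 9 reversed. Mrps18a in Cd31+ cells reversed to 0.0600 without nc shRNA library 3, and leaving out 1 library gave -0.147 to 0.0600. Mrps18b in Cd146+ cells reversed to -0.0176 and -0.0673 in the replicate block of 2 groups and of 12 libraries, to -0.111 without the length trend, to -0.101 with the block as well, to -0.220 in the block without the libraries numbered 3, and to -0.0699, -0.0444 and -0.164 without nc shRNA library 1, nc shRNA library 5 and P16 shRNA library 3 (leaving out 1 library gave -0.164 to 0.200). The cause was not tested. Members called on silencing in Cd146+ cells numbered 32 in a fit of 12 libraries without a block. They numbered 12 in the replicate block of 2 groups (7.57% of all genes higher) and 7 without the libraries numbered 3 (3.71%). For the fit without a block, and for settings below with no share given above, the counts have no background here. For P16 in Cd31+ cells, with 0 calls, there were 4 without the filter, 1 with DESeq2's Wald test, 3 with 12 libraries, 6 and 10 in the replicate blocks, 1 without the length trend and 11 with that and the block. For P16 in Cd146+ cells the block gave 1, with or without the length trend. For nc shRNA against empty vector, Cd31+ cells gave 9 with 12 libraries, 9 in the block of 2 groups, 7 with block and length trend and 0 with Ddx3y as a covariate, and Cd146+ cells gave 2 with DESeq2 and 0 with Ddx3y. Between populations with nc shRNA the block left 1. The difference in silencing gave 1 in the block of 24 libraries, and that in overexpression 1 with DESeq2's size factors or Wald test and 2 without the length trend. Leaving out 1 library gave 15 to 29 calls on silencing in Cd31+ and 3 to 26 in Cd146+ cells, 0 to 8 and 0 to 2 for P16, 0 to 6 and 0 to 2 between controls, 3 to 8 and 1 to 5 between populations with nc shRNA and empty vector, and 0 to 1 for both differences. Mrpl53, at 0 reads, shares its whole span with Gm42688, and the parts of depth and of read assignment in this count were not tested. No 2-group block was possible for Cd146+ P16 or Cd146+ controls, which share 1 number.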
